A study of Mus musculus with 6 samples.

Results

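Irx1, Irx2, Irx3 and Irx5, 4 genes of the Iroquois homeobox family, were examined in whole mouse ovaries at postnatal day 14. They were taken by gene symbol from a table of 37924 genes, and all 4 were found there once. The cKO group held 3 libraries from mice that were homozygous for a floxed allele and carried the transgene Gdf9iCre+. The control group held 3 libraries from mice homozygous for the same floxed allele, with no Cre named in their genotype label. All mice were of the strain C57BL/6J/129S7/SvEvBrd. Cre under the promoter of Gdf9, an oocyte growth factor gene, acts in oocytes, so the somatic cells of a cKO ovary keep the floxed gene. A library was a pool of RNA from 3 mice, 1 ovary per mouse, and the spread between libraries is therefore a spread between pools. Levels are FPKM, fragments scaled to transcript length and library total, and changes are differences in log2(FPKM + 1), cKO minus control, so that a positive one is higher in cKO ovaries.

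Iroquois proteins are transcription factors with a homeodomain of the TALE class, which has a loop of extra residues between its first and second helices. The mouse genes lie in a pair of clusters, IrxA with Irx1, Irx2 and Irx4 and IrxB with Irx3, Irx5 and Irx6. In the mouse ovary, Irx3 and Irx5 are known from granulosa cells and, for a time, oocytes of the forming follicle, where loss of both disturbs the contact between oocyte and granulosa cells. Canonical WNT signalling through beta-catenin is known to promote their expression in the fetal mouse ovary.

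Irx3 was the most abundant of the 4 genes and Irx5 the next, while Irx1 and Irx2 were near the smallest values that the libraries could hold. Irx3 and Irx5 were not called different between cKO and control ovaries, and Irx1 and Irx2 were too low for that test. Irx3 averaged 5.38 ± 0.705 FPKM in cKO ovaries and 4.14 ± 0.885 FPKM in control ovaries (SD, n = 3 each). Irx5 averaged 0.929 ± 0.123 FPKM in cKO ovaries and 0.824 ± 0.273 FPKM in control ovaries. Neither gene passed the test (limma, adjusted p below 0.05), which 646 of 14934 genes tested (4.33%) passed, 2.24% being higher and 2.09% lower in cKO ovaries. In numbers, 334 rose and 312 fell, against 254 and 577 when libraries were centred on their medians, and no gene rose when cKO 1 or control 2 was left out (limma, with 2837 and 2266 genes at an unadjusted p below 0.05). Both had a positive log2 change, as 58.5% of all genes tested did. In whole tissue, fewer cells of a type and less RNA per cell cannot be told apart.

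The homeobox is the stretch that makes these genes a family, and it is also where fragments of one member could be assigned to another, so it is shown here for the 4 genes. The most alike stretch of 189 coding bases was found by sliding Irx3 along the other coding sequences (transcripts of GENCODE M21, build mm10). In every gene it lay in exon 2. It stood at chr13:71959983-71960171 on the minus strand for Irx1 and at chr13:72630673-72630861 on the plus strand for Irx2. For Irx3 it was chr8:91800487-91800675 on the minus strand, and for Irx5 chr8:92359636-92359824 on the plus strand. Capitals mark the 157 bases (83.1%) that are the same in all 4 genes, each sequence being written 5′ to 3′ on the coding strand.
Irx1: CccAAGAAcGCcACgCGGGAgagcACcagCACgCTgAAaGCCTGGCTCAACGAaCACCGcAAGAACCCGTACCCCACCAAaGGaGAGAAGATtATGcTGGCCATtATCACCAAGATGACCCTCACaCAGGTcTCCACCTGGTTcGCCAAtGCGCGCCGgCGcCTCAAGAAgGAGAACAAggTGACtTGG
Irx2: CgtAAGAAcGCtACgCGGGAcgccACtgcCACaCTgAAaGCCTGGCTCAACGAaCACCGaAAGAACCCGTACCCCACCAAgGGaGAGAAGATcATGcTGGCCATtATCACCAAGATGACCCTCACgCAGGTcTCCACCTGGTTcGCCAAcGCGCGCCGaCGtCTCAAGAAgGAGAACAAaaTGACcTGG
Irx3: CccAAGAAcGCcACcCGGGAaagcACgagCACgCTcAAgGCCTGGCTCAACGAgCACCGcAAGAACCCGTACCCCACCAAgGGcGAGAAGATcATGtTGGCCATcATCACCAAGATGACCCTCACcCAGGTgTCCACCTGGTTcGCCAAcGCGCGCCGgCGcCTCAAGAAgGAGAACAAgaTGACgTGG
Irx5: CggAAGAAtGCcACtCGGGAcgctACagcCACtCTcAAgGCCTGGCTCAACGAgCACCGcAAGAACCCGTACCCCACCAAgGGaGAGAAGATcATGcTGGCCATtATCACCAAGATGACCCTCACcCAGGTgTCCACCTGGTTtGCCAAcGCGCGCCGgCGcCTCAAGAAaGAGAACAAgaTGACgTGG

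Of the 6 pairs of genes, Irx1 and Irx3 were the most alike over this stretch, at 91.5% of bases, and Irx3 and Irx5 followed at 91.0%. Irx1 with Irx5 and Irx2 with Irx3 were the least alike, at 87.3% each. The longest run of identical bases in whole transcripts was 65 for Irx2 and Irx5 and 50 for Irx3 and Irx5, and it was 26 to 32 for the other pairs. A short fragment within such a run cannot be told apart between the genes. The treatment of fragments with several matches was not given in the sources used here.

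Depth, estimated from the lowest values of each library, was 22.5 to 24.9 M fragments in cKO libraries and 19.6 to 22.7 M fragments in control libraries. One fragment of Irx3 was then worth 0.0154 to 0.0196 FPKM. The libraries held all 20 granulosa and all 16 oocyte markers on the lists used, and each of these passed the filter on low values. Among libraries that stood apart, control 3 had the highest summed level of 8 adipose marker genes, 87.6 FPKM against 35.3 to 40.0 FPKM in cKO libraries and 42.9 to 48.2 FPKM in the other controls. In cKO 3 a pair of neutrophil genes, S100a8 and S100a9, summed to 526 FPKM, and in every other library to at most 0.899 FPKM. These genes were chosen with their values known, and their part in the results below was not tested.

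Irx3, which in the mouse also controls conduction in the heart ventricles, is annotated at chr8:91798525-91802067 on the minus strand (ENSMUSG00000031734). It measured 6.13, 5.27 and 4.73 FPKM in cKO 1, 2 and 3, and 5.08, 4.02 and 3.32 FPKM in control 1, 2 and 3. These values stand for an estimated 307 to 372 fragments in cKO libraries and 169 to 299 fragments in control libraries. The groups overlapped, because control 1 was above cKO 3, whereas for 30% of all genes tested they did not. The highest library, cKO 1, was 1.85 times the lowest, control 3. The log2 change of Irx3 was 0.32 (standard error 0.15, 95% interval from -0.03 to 0.67) at an unadjusted p of 0.0659 and an adjusted p of 0.24 by limma. As a fold of FPKM + 1 this is 1.25, with an interval from 0.981 to 1.59 that includes no difference. The ratio of the FPKM means was 1.3. The unadjusted p was below 0.05 for 24.3% of all genes tested. With a mean above that of 31.8% of all genes tested, Irx3 was a transcript of low to moderate level in the ovary.

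The estimate for Irx3 moved with the library left out but kept its sign. Without control 3, where Irx3 was lowest, the log2 change was 0.20 at an adjusted p of 0.436. Without control 1, where it was highest among controls, the change was 0.45 at an unadjusted p of 0.0195 and an adjusted p of 0.222. In that fit, 2477 of 14934 genes had an unadjusted p below 0.05 (limma). Control 1 was the only control above cKO 3, so the overlap of the groups was bound to end without it. Without cKO 3 the change was 0.39, at an adjusted p of 0.217. The adjusted p of Irx3 lay between 0.209 and 0.629 over 16 alternatives. In the labels, the numbers of the 3 control libraries and of cKO 1 lie in one range and those of cKO 2 and cKO 3 in another, with no statement of what they stand for. Within the first range, the change of Irx3 was 0.49 at an adjusted p of 0.277, where the spread of the single cKO library was taken to be that of the controls.

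Irx5, known in the mouse for the gradient of repolarisation across the heart wall and for retinal bipolar cells, is annotated at chr8:92357625-92376286 on the plus strand (ENSMUSG00000031737). It measured 1.07, 0.831 and 0.891 FPKM in cKO 1, 2 and 3, and 1.14, 0.700 and 0.635 FPKM in control 1, 2 and 3. An estimated 44.8 to 59.7 fragments lay behind the cKO values and 29.9 to 61.8 behind the control values. All 3 cKO libraries fell between control 1, the highest library, and control 2. The log2 change of Irx5 was 0.09 (standard error 0.15, 95% interval from -0.27 to 0.44), and its adjusted p was 0.76 by limma. As a fold of FPKM + 1 the interval ran from 0.832 to 1.36, which is narrower than for FPKM itself. The ratio of the FPKM means was 1.13. With a pseudocount of 0.1, the log2 change was 0.19 (95% interval from -0.51 to 0.88). The pseudocount of 1 shrinks the change of so low a gene, also where it is set beside gene lists below. Quantile normalisation turned the sign of the change of 0.09, to -0.0099.

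**Figure D1:**
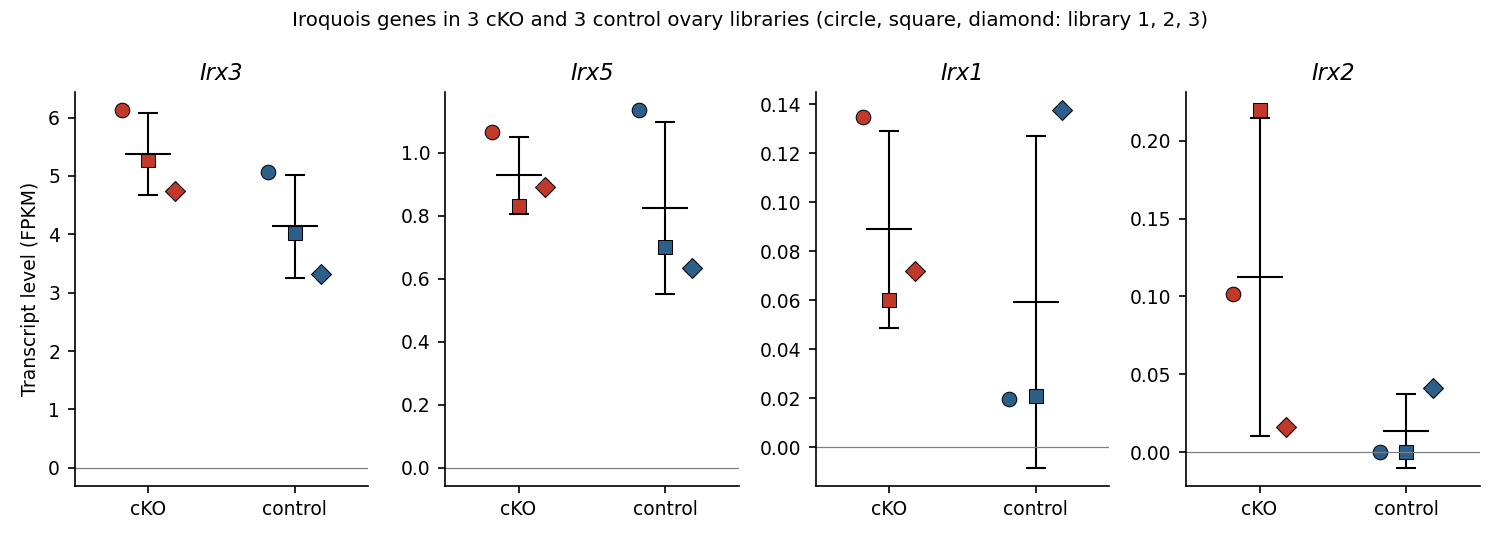
Transcript level in FPKM of Irx3, Irx5, Irx1 and Irx2 in the 3 cKO (red) and 3 control (blue) libraries, with circle, square and diamond for library 1, 2 and 3 and with the mean and SD in black; each panel has its own scale. For Irx3, control 1 at 5.08 FPKM lies above cKO 3 at 4.73 FPKM, and Irx1 and Irx2 stay at or under 0.220 FPKM.

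Irx3 exceeded Irx5 in all 6 libraries, the lowest Irx3 value of 3.32 FPKM being above the highest Irx5 value of 1.14 FPKM. The ratio of Irx3 to Irx5 was 5.75, 6.35 and 5.31 in cKO 1, 2 and 3, and 4.46, 5.75 and 5.22 in control 1, 2 and 3. On this ratio of FPKM values the groups overlapped. On the log2(FPKM + 1) scale, Irx3 minus Irx5 averaged 1.72 ± 0.10 in cKO ovaries and 1.49 ± 0.08 in control ovaries (SD, n = 3 each), and the groups did not overlap. A two-sided exact permutation test gave p = 0.1, its lower bound with 3 libraries in each group. With a pseudocount of 0.5 or 0.1 in place of 1, the exact permutation p was 0.2.

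Irx1 and Irx2, the IrxA genes of the set, were too low for the comparison across genes, which took genes with a mean of at least 0.5 FPKM. Irx1, which in the mouse is known from the developing lung, heart and kidney, is annotated at chr13:71957921-71963723 on the minus strand (ENSMUSG00000060969). It measured 0.135, 0.0601 and 0.0722 FPKM in cKO 1, 2 and 3, and 0.0198, 0.0208 and 0.138 FPKM in control 1, 2 and 3. These values stand for an estimated 3 to 7 fragments in cKO libraries and 1 to 6 in control libraries. The highest value of Irx1 was in a control library and the groups overlapped. Its two-sided exact permutation p was 0.6 (n = 3 each).

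Irx2, expressed in the mouse in a pattern close to that of Irx1 in several developing organs, is annotated at chr13:72628820-72634198 on the plus strand (ENSMUSG00000001504). It measured 0.101, 0.220 and 0.0162 FPKM in cKO 1, 2 and 3. In control 1 and control 2 it was listed at 0, and in control 3 it measured 0.0413 FPKM. The cKO values stand for an estimated 1 to 12.2 fragments and the control values for 0 to 2. The groups overlapped, since control 3 was above cKO 3, with p = 0.2 in a two-sided exact permutation test (n = 3 each). No fold is given for Irx1 and Irx2 at these levels. No difference between the groups was detected, by a test whose p cannot go below 0.1 with 3 libraries in each group.

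The remaining Iroquois genes were lower still. Irx4, a gene of ventricular heart muscle in the mouse, was listed at 0 in all 6 libraries. Irx6, known from retinal bipolar cells in the mouse, was listed at 0 in all cKO libraries and measured 0.00861 FPKM in control 2 alone. By level per length, the order of the family was thus Irx3, Irx5, then Irx1 and Irx2, then Irx6 and Irx4. Irx5 stood above Irx1 and Irx2 in every library, from 0.635 FPKM against at most 0.220 FPKM. Irx1 and Irx2 overlapped each other and could not be ordered.

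The IrxB cluster held a further transcript that runs opposite to Irx3. Irx3os, a noncoding antisense gene, shares 124 exon bases with Irx3, which is 4.49% of the exon bases of Irx3. It measured 0.520, 0.558 and 0.470 FPKM in cKO 1, 2 and 3, and 0.417, 0.227 and 0.270 FPKM in control 1, 2 and 3. All 3 cKO libraries were above all 3 controls, as 18% of the 14934 genes tested also were. Irx3os was below the filter on low values, and a two-sided exact permutation test gave p = 0.1, again the lower bound (n = 3 each). The strand setting was not given in the sources used here, so fragments of Irx3 and Irx3os in the shared bases cannot be told apart. No exon of any other annotated gene overlapped those of Irx1, Irx2, Irx3 or Irx5.

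Genes beside the clusters did not share 1 direction with the Iroquois genes. Fto, an RNA demethylase gene whose introns hold enhancers of Irx3, measured 47.8, 35.6 and 39.6 FPKM in cKO 1, 2 and 3, and 38.7, 36.3 and 33.2 FPKM in control 1, 2 and 3. It did not pass, with a log2 change of 0.17 and an adjusted p of 0.423. Crnde, a noncoding gene that starts 1.5 kb from the start of Irx5, averaged 2.74 ± 0.719 FPKM in cKO ovaries and 3.16 ± 0.352 FPKM in control ovaries (SD, n = 3 each) and did not pass either, at an adjusted p of 0.574 by limma. On the far side of Irx6, the matrix metalloprotease gene Mmp2 rose, to 142.5 ± 31.5 FPKM in cKO ovaries against 80.7 ± 3.34 FPKM in control ovaries (log2 change 0.79, adjusted p 0.0369 by limma). It was the only one of the 12 genes tested within or beside the clusters, other than Irx3 and Irx5, that passed. The call on Mmp2 was lost without cKO 1, cKO 3, control 1, control 2 or control 3, at adjusted p-values from 0.0563 without control 3 to 0.1685 without control 2 (limma), and the change stayed positive. Beside IrxA, the protease gene Adamts16 measured 1.62 ± 0.383 FPKM in cKO ovaries and 0.868 ± 0.129 FPKM in control ovaries, at an adjusted p of 0.106. Its groups did not overlap, as for 30% of all genes tested. The other 8 neighbours tested had log2 changes from -0.21 for Ndufs6 to 0.36 for Lpcat2 and did not pass. Irx1, the next coding gene after Adamts16, stayed at or below 0.138 FPKM in all libraries.

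**Figure D2:**
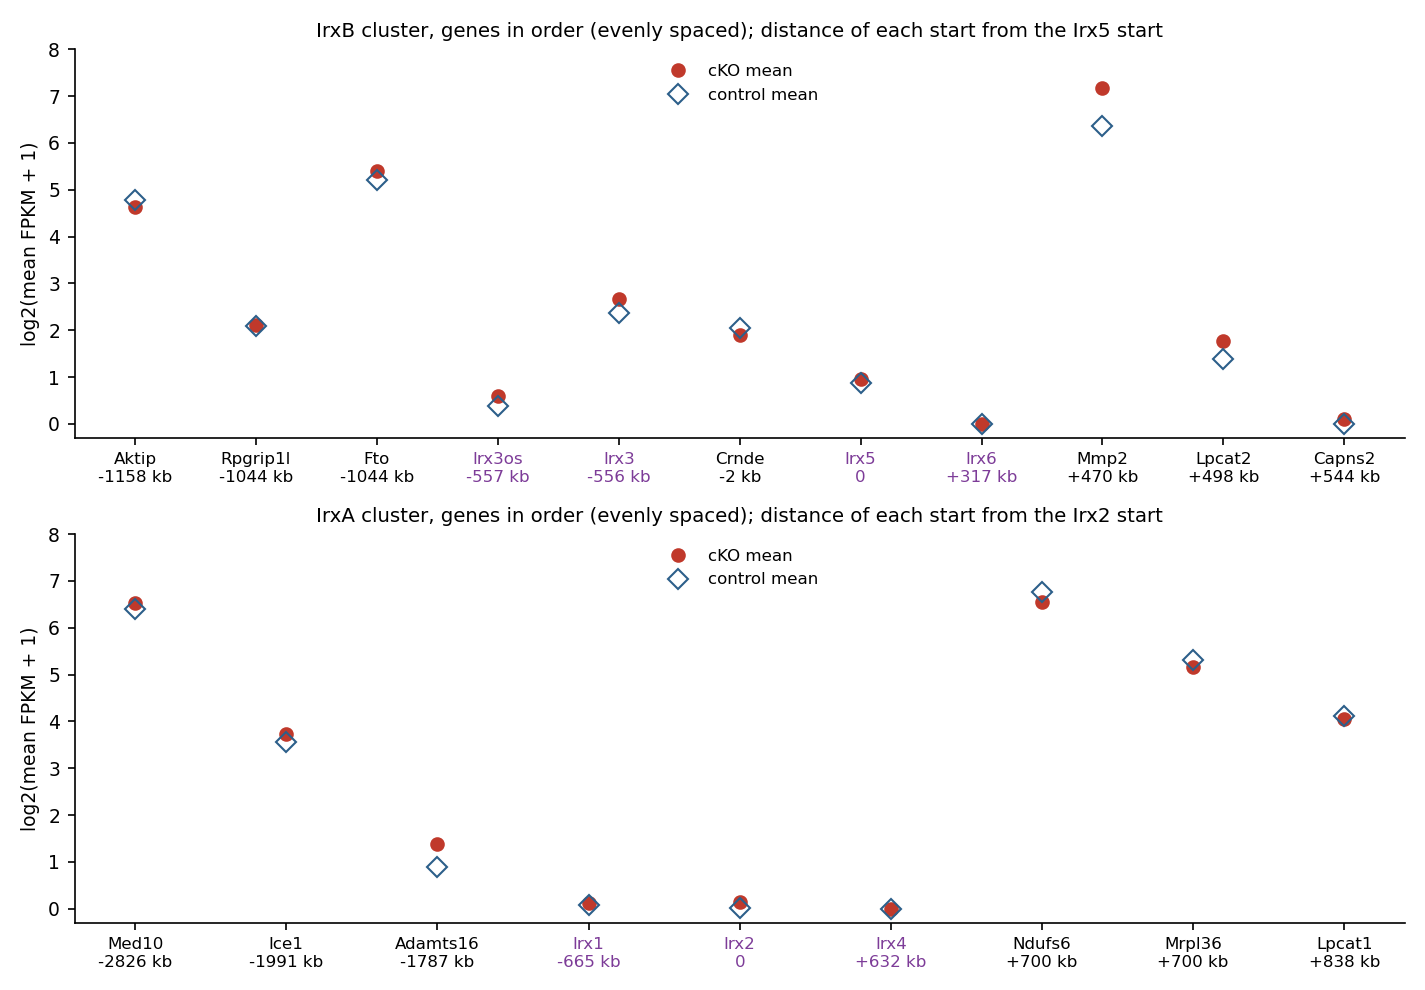
Mean level, as log2(mean FPKM + 1), of the genes in and beside the IrxB (top) and IrxA (bottom) clusters in cKO (red circles) and control (blue diamonds) ovaries, in genomic order with the distance of each gene's start from that of Irx5 or Irx2. The Iroquois genes and Irx3os are named in purple; Irx3 lies below Aktip, Fto and Mmp2 and above the other IrxB neighbours, the IrxA members lie below all 6 IrxA neighbours, and Mmp2 shows the widest gap between the groups.

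Across the libraries, Irx3 and Irx5 had a similar but not identical order. Both were lowest in control 3 and next lowest in control 2, while Irx3 was highest in cKO 1 and Irx5 in control 1. With each gene centred on its own mean, the root mean square difference between the log2 values of Irx3 and Irx5 over the 6 libraries was 0.139. Of 12326 genes with a mean of at least 1 FPKM, 3.2% were closer to Irx3 than Irx5 was, and of 12327 genes, 18.7% were closer to Irx5 than Irx3 was. Closest to Irx3 were Sprtn, a protease gene of DNA-protein crosslink repair, at 0.0435, then Pus10, a pseudouridine synthase gene, at 0.0543, and Cyth3, an ARF exchange factor gene, at 0.0568. Closest to Irx5 were Tcf7, a transcription factor gene of the WNT pathway, at 0.0283, then Pja1, a ubiquitin ligase gene, at 0.0387, and Sbno2, a helicase-related gene, at 0.0421. All genes share the depth and makeup of each library, which differ between the 6 libraries, and the values are a description of likeness only.

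**Figure D3:**
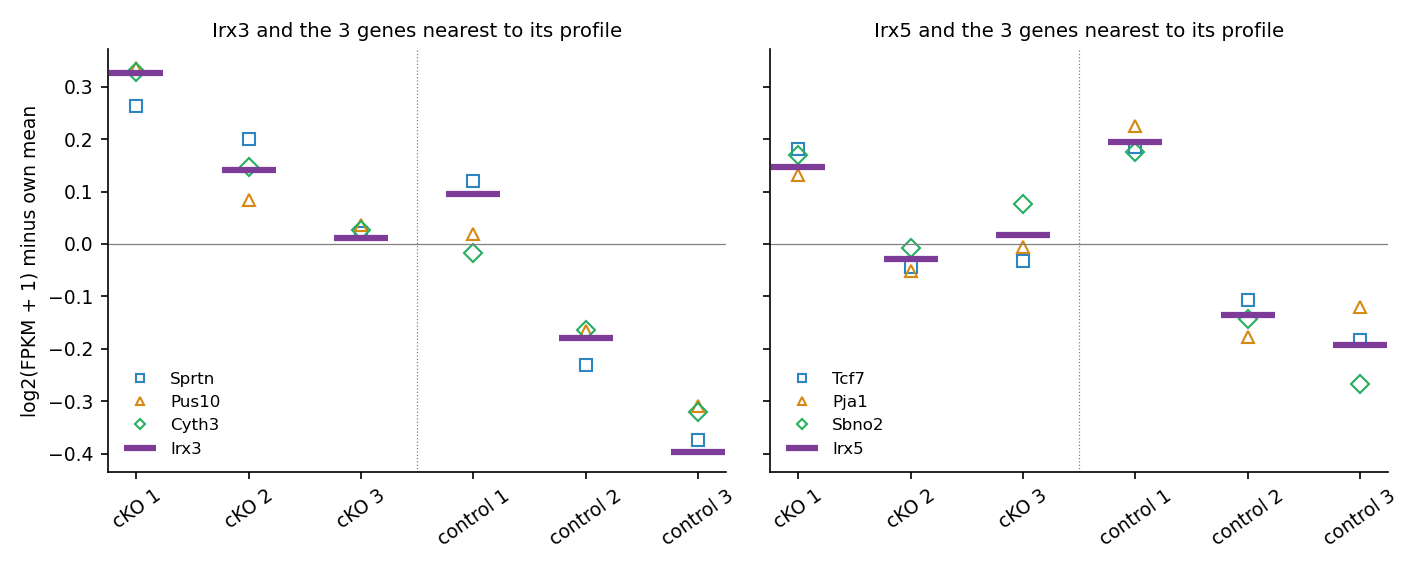
log2(FPKM + 1) minus each gene's own mean in the 3 cKO and 3 control libraries, for Irx3 (left) and Irx5 (right) as purple bars, with the 3 genes nearest to each as open symbols. Irx3 and Irx5 are both lowest in control 3, and control 1 has the highest Irx5.

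The level of Irx3 and Irx5 was next set beside that of granulosa markers. Whole ovary gives no level per cell, and this comparison gives none either. Of 20 granulosa genes tested, 6 fell, 2 rose and 12 did not pass, with a median log2 change of -0.32 against 0.05 over all genes tested. Over all genes tested, 2.09% fell and 2.24% rose. Of the 20, 12 had a negative and 8 a positive log2 change, where 58.5% of all genes tested were positive. The 2 that rose were Gatm, by 1.01, and Wt1, by 0.61 on the log2 scale. Leaving out libraries was not run for these 2 genes. The smallest p-values were those of Nap1l5, a gene of the nucleosome assembly protein family, which fell by 2.13 on the log2 scale, Fst, the follistatin gene, which fell by 1.85, Inhbb, an inhibin and activin subunit gene, which fell by 1.49, and Hsd17b1, an oestrogen synthesis gene, which fell by 1.36. All 4 lost their call without cKO 1, control 1 or control 2, and all but Nap1l5 also without cKO 2, at adjusted p-values (limma) from 0.0526 to 0.101. Irx3 minus the mean of the granulosa list, in log2 units, was -2.94, -2.92 and -3.18 in cKO 1, 2 and 3, and -3.61, -3.67 and -3.75 in control 1, 2 and 3. All cKO values were above all control values, with a difference of 0.66. For Irx5 minus the list, the values were -4.72, -4.69 and -4.78 in cKO ovaries and -5.11, -5.23 and -5.15 in control ovaries, again without overlap and with a difference of 0.43. Each gave p = 0.1 in a two-sided exact permutation test, the lower bound of this design (n = 3 each). The mean of the list itself was lower in cKO ovaries, at 5.57 to 5.77 log2 units, than in control ovaries, at 5.86 to 6.21. A shift of the list moves both differences, and the list was chosen with earlier results of these data known. Irx3 and Irx5 alone overlapped between the groups, with log2 changes of 0.32 and 0.09. The test of the differences therefore cannot show a change of Irx3 or Irx5 themselves.

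Marker lists of other cell types that a whole ovary holds are given beside these values, and their part in the Irx3 and Irx5 values was not tested. The shares of all genes tested that rose (2.24%), fell (2.09%) and had an unadjusted p below 0.05 by limma (24.3%) apply to these counts too. Summed stroma markers were 1179 to 1617 FPKM in cKO libraries and 910 to 1013 FPKM in control libraries, and 2 of 8 rose, Tcf21 and Pdgfra, by 0.55 and 0.81 on the log2 scale. Summed endothelial markers were 143 to 154 FPKM in cKO libraries and 126 to 134 FPKM in control libraries, and none of 8 passed by limma, with 1 at an unadjusted p below 0.05. Oocyte markers summed to 1972 to 3012 FPKM in cKO libraries and 1429 to 1618 FPKM in control libraries, and 5 of 16 rose, with the smallest p-values for Sohlh1, Zp2, Figla and Padi6, by 1.43, 0.89, 0.98 and 0.96 on the log2 scale. Of the 16 oocyte markers, 13 had a positive and 3 a negative log2 change, where 58.5% of all genes tested were positive. Genes of dividing cells summed to 325 to 361 FPKM in cKO libraries and 486 to 560 FPKM in control libraries, and 5 of 8 fell, with the smallest p-values for Top2a, Rrm2, Ccna2 and Pcna, at log2 changes of -0.87, -0.69, -0.75 and -0.49. The call on each gene named here was lost without cKO 1, control 1 or control 2, at adjusted p-values by limma from 0.0501 for Top2a to 0.1704 for Pdgfra and Padi6. Tcf21 also lost its call without cKO 2, cKO 3 or control 3, at 0.0751, 0.0544 and 0.0515 (limma). Pdgfra did so without cKO 2 or control 3, at 0.0966 and 0.0531. Figla did without cKO 2 or cKO 3, at 0.0761 and 0.0660, and Padi6 without cKO 3 or control 3, at 0.0856 and 0.0543. Without cKO 2, so did Rrm2, Ccna2 and Pcna, at 0.0549, 0.0610 and 0.0536. Sums of the theca, surface epithelium, macrophage and smooth muscle lists overlapped between the groups, and none of their 8, 8, 6 and 5 genes passed by limma, with 2, 0, 0 and 2 at an unadjusted p below 0.05. No marker on these lists was at 0 in all libraries.

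Other genes of the same homeodomain class are given for 11 members, none of which passed by limma, with 5 at an unadjusted p below 0.05, against 24.3% of all genes tested. By mean level per length, 10 of them were above Irx3 in both groups, the exception being Pbx4. Meis1, whose protein pairs with other homeodomain proteins on DNA, measured 17.65, 12.82 and 15.47 FPKM in cKO 1, 2 and 3, and 9.71, 9.39 and 12.77 FPKM in control 1, 2 and 3. The groups did not overlap, as for 30% of all genes tested, and cKO 2 and control 3 lay close together. The log2 change was 0.49 at an adjusted p of 0.103 by limma. Of 16 alternatives, only array weights gave Meis1 a call, at 0.0255, a setting in which 1041 genes rose and 743 fell. Its highest adjusted p was 0.413, without a filter on low values (limma). Pknox1, a related cofactor gene, had a log2 change of -0.31 at an adjusted p of 0.107. Tgif2, with the smallest p of the 11, had a log2 change of 0.32 at an adjusted p of 0.086 by limma, and alternatives were not run for it. The most abundant, Tgif1 and Pbx2, had log2 changes of 0.06 and 0.16, that of Tgif1 turning negative under median centring. Over the 11 genes the median of the log2 changes was 0.16. The 2 tested Iroquois genes, at 0.32 and 0.09, lay within the range of these 11.

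Of 18 genes of WNT signalling in the ovary, 4 rose and none fell, and the median log2 change was 0.34 against 0.05 over all genes tested, of which 2.24% rose. Wnt4, a ligand needed for ovarian fate, rose to 40.5 ± 2.35 FPKM in cKO ovaries against 22.4 ± 2.18 FPKM in control ovaries (SD, n = 3 each; adjusted p 0.0119 by limma). The ligand gene Wnt6 rose by 0.64 on the log2 scale, at an adjusted p of 0.0444 by limma. Axin2, a feedback inhibitor and target of the pathway, rose by 0.60 at an adjusted p of 0.0222, and Apcdd1, another, by 0.43 at 0.0387. Without cKO 1, control 1 or control 2, each of these 4 calls was lost, that on Wnt4 at adjusted p-values from 0.0802 to 0.086. Wnt6 and Apcdd1 also lost theirs without cKO 2, cKO 3 or control 3, at 0.0625 to 0.0857, and Axin2 without cKO 2, at 0.0588. Apcdd1 further lost its call under quantile normalisation and median centring, at 0.0518 and 0.0532. The remaining 14 did not pass, among them Rspo1, a secreted amplifier of WNT signals, at 0.38 and the receptor gene Fzd1 at 0.32. Irx3, at 0.32, was close to the median of this list, and Irx5, at 0.09, was below it, as was Tcf7 at 0.07.

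Among 16 genes for contact between oocyte and granulosa cells, the process in which Irx3 and Irx5 are known to act, 1 fell and 1 rose, against 2.09% and 2.24% of all genes tested. Gja1, the connexin 43 gene of granulosa gap junctions, fell to 387 ± 24.6 FPKM in cKO ovaries against 793 ± 106 FPKM in control ovaries (SD, n = 3 each; log2 change -1.02, adjusted p 0.0123 by limma). Nectin2, a cell adhesion gene, rose by 0.49 at an adjusted p of 0.032. Both calls were lost without cKO 1, cKO 2, control 1 or control 2, for Gja1 at adjusted p-values from 0.0529 to 0.0903 and for Nectin2 from 0.0753 to 0.1615, and that on Nectin2 also without control 3, at 0.0546. The 14 that did not pass included Fscn1, which bundles the actin of transzonal projections, at -0.67, and Kitl, the KIT ligand gene, at 0.73, both without overlap between the groups. The groups did not overlap for 4 of the 16 contact genes and for 30% of all genes tested. Fscn1 passed under 4 of 16 alternatives. These were quantile normalisation (0.0427), median centring (0.0404), array weights (0.0283) and leaving out control 3 (0.0487), by adjusted p from limma. Its highest adjusted p was 0.321, without a filter on low values. Kitl passed under 3 of 16, with array weights (0.0382), without cKO 3 (0.0416), and without control 3 and cKO 3 together (0.0300). Its highest adjusted p was 0.401, without that filter (limma). The median log2 change of the contact genes was 0.10. Irx3, at 0.32, and Irx5, at 0.09, lay between Fscn1 and Kitl.

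**Figure D4:**
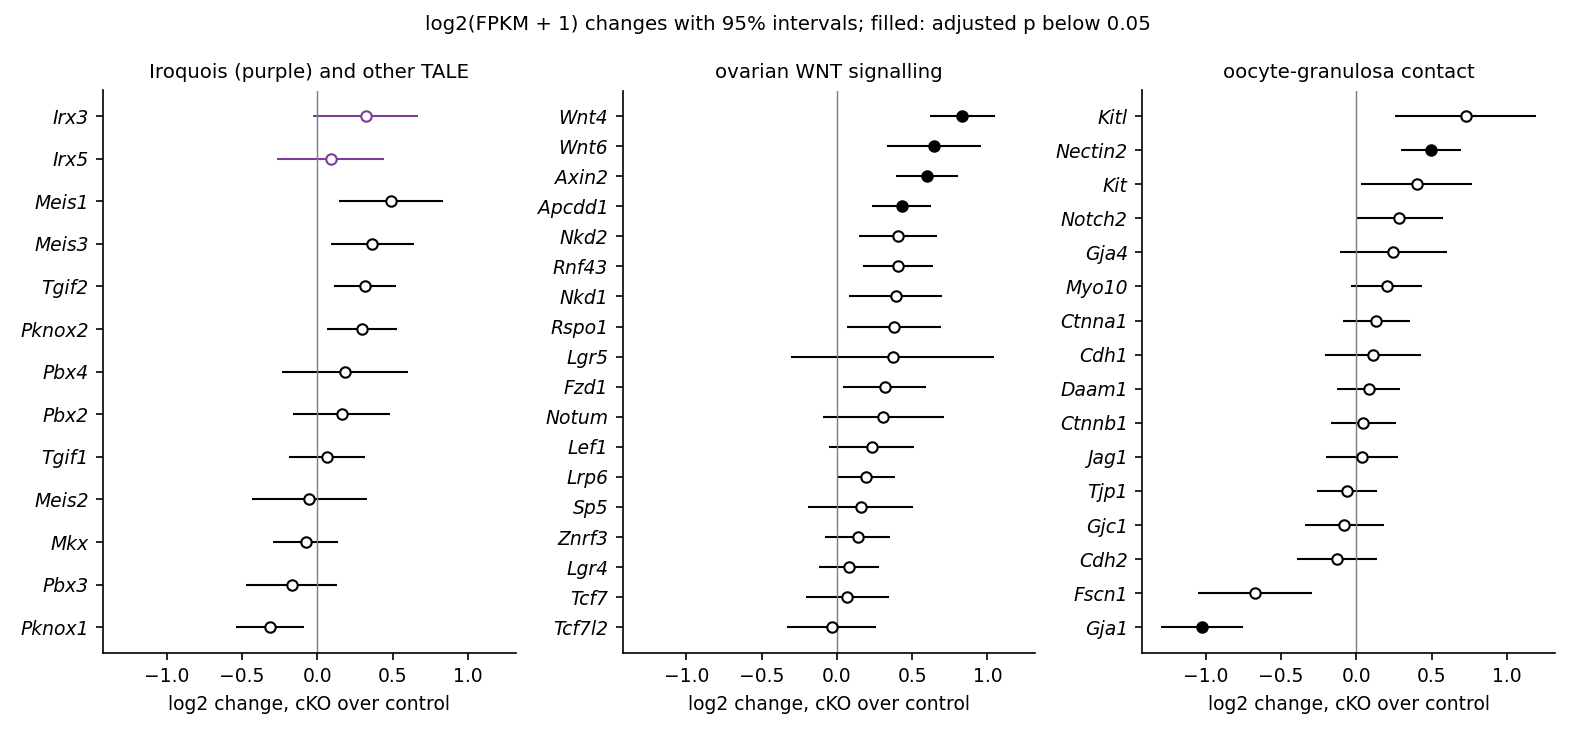
log2 change on the log2(FPKM + 1) scale, cKO over control, with 95% intervals from limma, for the tested Iroquois genes (purple) with 11 other TALE genes (left), WNT signalling genes (middle) and contact genes (right); filled points passed at an adjusted p below 0.05. The intervals of Irx3 and Irx5 include 0, while Wnt4, Wnt6, Axin2, Apcdd1 and Nectin2 are filled and above 0 and Gja1 is filled and below 0.

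**Figure D5:**
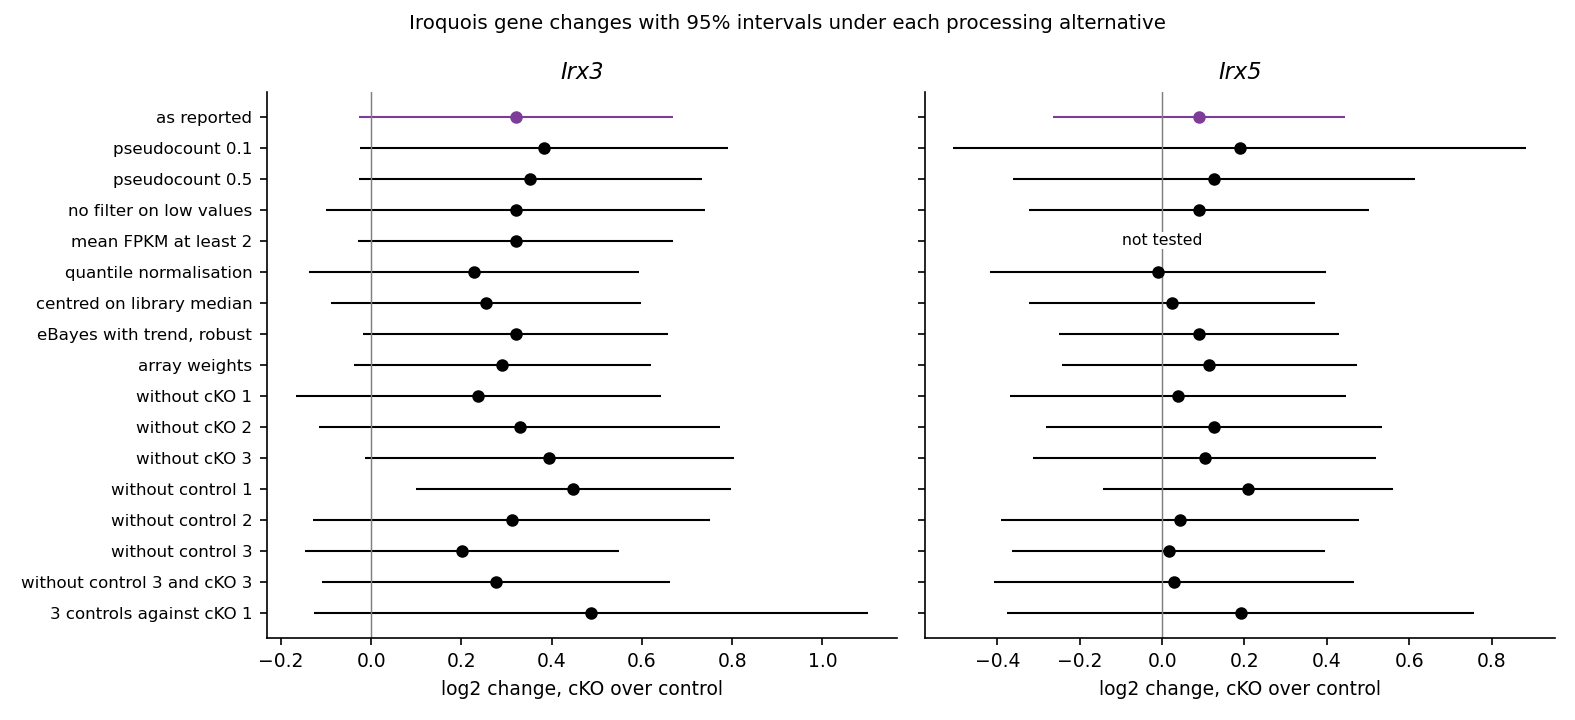
log2 change of Irx3 (left) and Irx5 (right), cKO over control, with 95% intervals from limma under each processing alternative, the reported fit in purple. The Irx3 estimates lie between 0.20 and 0.49 with 1 interval above 0, that without control 1, and the Irx5 estimates lie between -0.0099 and 0.21 with every interval including 0.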

How the data were processed

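RNA of 6 ovary pools, 3 cKO and 3 control by the genotype label, was sequenced on an Illumina HiSeq. The values are FPKM as the authors deposited them. The submitters' processing notes name TopHat2 2.0, Cufflinks 2.0 and the build mm10, without saying what each did. Annotation, strand setting, filters and any further scaling were not given in the sources used here. FPKM divides by the library total, so abundant transcripts shift all others.

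Depth was estimated by reading FPKM below 0.15 as 1 fragment in genes with 1 transcript of at least 1500 exon bases, less 150 bases. Estimated fragments carry no interval. Genes were matched to GENCODE M21 by Ensembl ID.

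Groups were compared with limma 3.58.1 in R 4.3.3 (eBayes with trend) on log2(FPKM + 1) for genes with a mean of at least 0.5 FPKM. P-values were adjusted by Benjamini-Hochberg over all 14934 genes, with a threshold of 0.05. Rose and fell are used of genes that passed. Tested on simulated data of 14934 genes for cKO against control, 86% of 100 genes with a set log2 change of 1 were called. Of 100 with a change of 2, 98% were called, with 9 unchanged genes among 193 called. The changed genes were drawn only from genes with a mean log2(FPKM + 1) above 2, a level that Irx5 did not reach. Smaller changes were not simulated, and the rates were not split by expression level. They therefore cannot say how often changes like those of Irx3 (0.32) and Irx5 (0.09) would be called. Single values were compared by two-sided exact permutation tests (scipy 1.17.1).

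The members and gene lists were chosen with earlier results of these data known. Named genes were the Iroquois genes, genes beside their clusters (up to 3 coding genes on each side), passing genes of the TALE, contact and WNT lists (or the 2 most abundant), up to 4 passing genes of smallest p in each other list, and the 3 genes with the nearest profile to each tested member. By this rule the 2 most abundant genes of lists without a call would be named too, but those of the cell type lists are given by sums only. Gatm, Wt1, Meis1, Pknox1, Tgif2, Pbx4, Rspo1, Fzd1, Fscn1 and Kitl were chosen after their values were seen. Replicate numbers follow the order of deposit. Alternatives were pseudocounts, filters, normalisation, weights and leaving out libraries. Results of the floxed gene and of some others are not reported here, and list counts cover the genes reported.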

Additional observations from a re-analysis of the deposited data

How the results depend on the processing

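Irx3 kept its positive sign and did not pass under all 16 alternatives, with log2 changes from 0.20 to 0.49. Irx5 did not pass under any of the 15 that could be run (at a minimum mean of 2 FPKM it is not tested) and changed sign under quantile normalisation, to -0.0099; the cause was not tested. Leaving out 1 library gave 0.20 to 0.45 for Irx3 and 0.02 to 0.21 for Irx5. Irx1 and Irx2 were tested only without a filter, at adjusted p-values of 1 and 0.707. Their differences in log2(FPKM + 1), 0.04 and 0.13, became 0.30 and 0.80 with a pseudocount of 0.1, and 0.24 for Irx2 with 0.5, since a smaller pseudocount widens differences near 0. Leaving out 1 library gave 0.01 to 0.09 and 0.06 to 0.19. Normalisation, weights, robust fitting and the stricter filter were not run for these genes. Alternatives were not run for Ndufs6, Lpcat2, Tgif2, Gatm, Wt1, Sprtn, Pus10, Cyth3, Pja1 and Sbno2. Among the other named genes for which they were run, Tcf7 and Crnde changed sign when 1 library was left out. The change lay between -0.0034 and 0.18 for Tcf7 and between -0.26 and 0.0039 for Crnde. Tgif1 changed sign under median centring, to -0.0020, and without control 3 and cKO 3 together, to -0.056. Each named gene that passed, Gatm and Wt1 not being examined, lost its call without a filter on low values (Top2a excepted) and in the 3 controls against cKO 1. Irx3 minus Irx5, both differences from the granulosa list, and Irx3os (8 alternatives each, those of Irx3os added after seeing the data) kept their sign; the Irx3os difference of 0.22 was 0.63 with a pseudocount of 0.1.

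Over all genes, 334 rose and 312 fell. Without a filter 23 and 17 did, with array weights 1041 and 743, without control 3 and cKO 3 together 204 rose, and in the 3 controls against cKO 1, 22 rose and 1 fell. Centred on library medians, 254 rose and 577 fell. Leaving out 1 library gave 0 to 307 that rose and 2 to 353 that fell; 0 rose without control 2 or cKO 1, with 2266 and 2837 genes at an unadjusted p below 0.05, 1 without control 1 and 40 without cKO 2. No paired analysis was possible because sample labels carry no replicate number.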
